A study of Mus musculus with 15 samples.

Results

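The genes of oxidative phosphorylation were followed through the cells of the mouse aorta, as 113 of the 33696 genes in the count matrices. They were taken by symbol: every gene whose symbol starts with Nduf, Uqcr, Sdha, Sdhb, Sdhc, Sdhd, Atp5, Cox4, Cox5, Cox6, Cox7 or Cox8, and every mitochondrial gene starting with mt-Nd, mt-Co, mt-Cytb or mt-Atp, leaving out pseudogenes marked -ps. The nuclear genome encodes 100 of them. By symbol these fall into 41 genes of complex I and 8 of its assembly factors, 4 of complex II and 4 of its assembly factors, 8 of complex III, 18 of complex IV and 17 of complex V. The other 13 are the protein-coding genes of the mitochondrial genome. The rule used symbols and no measured value, and it was set with earlier results of these data known.

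Oxidative phosphorylation takes place in the inner mitochondrial membrane. Complexes I and II pass electrons from NADH and succinate to ubiquinone, complex III passes them on to cytochrome c, and complex IV (cytochrome c oxidase) to oxygen. Complex V, the ATP synthase, uses the proton gradient that complexes I, III and IV build up. All subunits of complex II are nuclear, while the other complexes combine nuclear subunits with subunits made inside the mitochondrion from mitochondrial DNA. Several nuclear subunits exist as isoforms from separate genes, which differ between tissues or with oxygen supply.

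The data were counts of unique molecular identifiers (UMIs), which stand for captured RNA molecules, in cells of whole aortas from wild-type C57BL/6N mice of both sexes. Young mice, 3 months old by the design text (the study's methods give a higher age), and old mice of 27 months received by gavage either vehicle, a mixture of ethanol, PEG400 and Phosal, or fisetin, a plant flavonol, in 2 separate weeks of dosing. They were killed 1 to 2 weeks after the last dose. Young mice on vehicle (Y VEH) or fisetin (Y FIS) and old mice on fisetin (O FIS) gave 4 libraries each, from 2 female and 2 male pools, while old mice on vehicle (O VEH) gave 2 female libraries and 1 male library. By the labels each library pooled the aortas of 3 mice, while the study's text allows fewer. It lists fewer old females on vehicle and old males on fisetin than pools of 3 would need. Libraries, not cells or mice, were the replicates.

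The 15 libraries held 49964001 to 74587567 UMIs. Of 130551 barcodes, 128019 had 200 to 7000 detected genes and at most 25% mitochondrial UMIs. All of those mitochondrial UMIs belonged to the 13 mitochondrially encoded genes, so this filter bounds their share in a cell. Marker genes that are not among the 113 placed 114103 cells (89.1%) in a cell type, and 12 types had enough cells: 54453 endothelial cells (ECs), 24933 fibroblasts, 13138 B cells, 6865 T cells, 6276 macrophages, 2564 vascular smooth muscle cells (VSMCs), 1708 neutrophils, 1335 pericytes, 1219 lymphatic ECs, 427 mesothelial cells, 400 Schwann cells and 380 natural killer (NK) cells. A type entered in a library with at least 10 of its cells, which left 15 libraries except for macrophages (14), neutrophils and NK cells (13 each) and mesothelial and Schwann cells (12 each). No 2 libraries shared more than 0.574% of the barcodes of the smaller one. UMIs of the 7 erythrocyte markers, haemoglobin among them, were found in every type and varied widely between libraries, with the highest sums in macrophages, at 11206 to 234295 CPM (counts-per-million, the UMIs of a gene or list scaled to the UMIs of the cell type).

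Levels of genes are given in CPM of a cell type, scaled across types, as mean ± SD over libraries. UMIs count molecules at their 3′ ends and were not scaled by length. Averaged over the 12 types, the nuclear genes with the highest level in each complex were Cox4i1 in complex IV (650.9 CPM), Atp5e, the epsilon subunit, in complex V (510.3 CPM), Uqcrh, the hinge protein, in complex III (426 CPM), Ndufa4 among the complex I symbols (328 CPM) and Sdha, the flavoprotein, in complex II (98.2 CPM). The assembly factors were lower, led by Ndufaf8 at 55.9 CPM for complex I and Sdhaf2 at 33.2 CPM for complex II. The mitochondrially encoded genes were far more abundant, with mt-Co3 at 7288 CPM, mt-Atp6 at 6425 CPM and mt-Co1 at 5930 CPM. Of the 113 genes 108 passed the filter on low counts for the comparison between types. The 5 others were Cox6a2, Cox7b2 and Cox8c, isoforms best known from striated muscle or testis, with 505, 8 and 1 UMIs in the 12 types together, Ndufb11b with 2, and Ndufb4b with 2659. Ndufb4b is a near copy of Ndufb4 (20107 UMIs), so that the split of reads between them is uncertain.

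Most oxidative phosphorylation genes were not called different between cell types, and the differences with the smallest p were those of Cox4i2 and Ndufa4l2 in pericytes. Each type was compared with the mean of the other 11 types on the log2 scale, with edgeR's quasi-likelihood test and the library as a block, and a gene was called at a Benjamini-Hochberg adjusted p under 0.05 and a log2 difference beyond 1. Over 12 types, 32.2% of the tests of all 13874 genes were called. Of 1140 tests of nuclear members 79 were called (6.93%), 24 higher and 55 lower (with Cox8b in NK cells, which had no UMI there), and of 156 tests of mitochondrially encoded members 7 were (4.49%), 6 higher and 1 lower. By complex the share called ran from 3.12% for complex III and 4.17% for the subunits of complex II to 13.9% for complex IV. Of the 95 nuclear members tested in each type, 36 were called in neutrophils (54.3% of all genes were called there), 7 in pericytes (30.2%), 6 in B cells (35.4%) and 5 in ECs (24.5%). In VSMCs (30.6%), T cells (33.7%) and Schwann cells (29.2%) it was 4 each, in fibroblasts (29.4%), macrophages (30.3%) and mesothelial cells (30.5%) 3 each, and in lymphatic ECs (25.6%) and NK cells (32.4%) 2 each. The count of pericytes depended on the gate. A stricter gate added the limit of at most 1 detected marker of any other type. It left 227 pericytes, and 51 of the 95 nuclear members were called there, 48 of them lower. Of all genes 28.2% were called there and 13.2% were lower. The median difference of nuclear members was -1.05 in place of -0.24, and that of all genes -0.30. Over the 11 types with a fit under this gate, without mesothelial cells, 27% of the tests of all genes were called. The limit on markers can favour shallow cells. Under the main gate VSMCs had a median of 1554 UMIs without a pericyte marker and 11766 with at least 3. The part of depth and of the changed set of types in these shifts was not tested. In the plot of all differences by cell type, most members lie within 1 log2 unit of the other types, and 57 of the 108 were called in no type. Outside neutrophils, the calls fell largely on the isoforms Cox4i2, Ndufa4l2, Cox6b2, Cox7a1 and Cox8b and on Cox7a2l. A very high level in pericytes raises the mean with which the other types are compared. Ndufa4l2 was called lower in lymphatic ECs, macrophages, B, T, NK, mesothelial and Schwann cells, and Cox4i2 in macrophages, B cells and mesothelial cells. These lower calls are therefore not separate from the differences of pericytes.

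**Figure D1:**
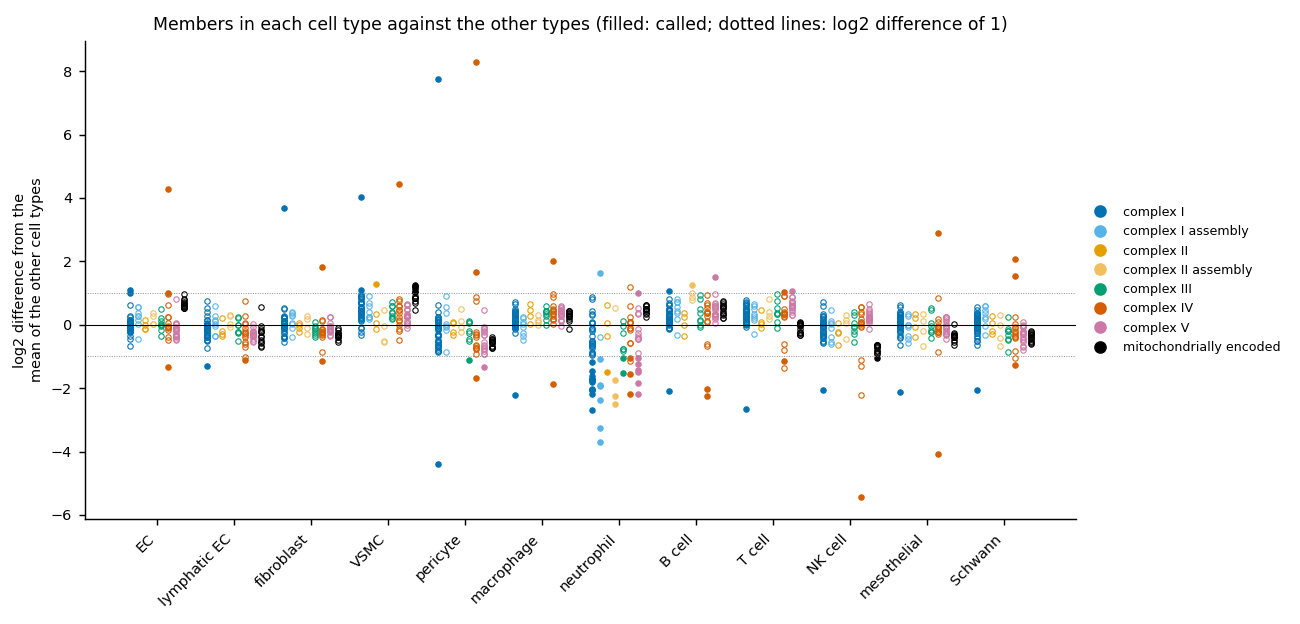
Each circle is a member in a cell type, its height the log2 difference between that type and the mean of the other 11, coloured by complex and filled where called. Pericytes hold the 2 highest points, Cox4i2 (8.28) and Ndufa4l2 (7.77), and Ndufa4 at -4.38, while neutrophils have 34 nuclear members called lower. The lowest point, in NK cells, is Cox8b, of which no UMI was counted there, so that its height is no estimate of size.

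Among the other genes of energy metabolism, the 16 enzymes of the tricarboxylic acid (TCA) cycle and 32 assembly factors and cytochrome c genes outside the symbol rule were also seldom called (7.29% and 7.53% of tests). The glycolytic enzymes were called in 32.2% of their tests, 29 times higher and 29 times lower, which is the share over all genes. The regulators of mitochondrial transcription and biogenesis, such as Ppargc1a and Tfam, were called in 17.2%.

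Pericytes, the mural cells of small vessels, differed from the other cell types in the isoforms of 2 subunits: they held Cox4i2 beside Cox4i1, and Ndufa4l2 with little Ndufa4. COX4 is a nuclear subunit of complex IV that takes part in its regulation by ATP. Cox4i1 is the common isoform, and Cox4i2 is known from lung and from oxygen-sensing cells and for its induction by low oxygen. Ndufa4 was first placed in complex I and is now held to be a subunit of complex IV, and Ndufa4l2 is its paralogue, a known target of hypoxia-inducible factors.

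The level of Cox4i2 in pericytes was 519.7 ± 117 CPM (SD, n = 15), with a lowest library at 192, a median of 509 and a highest at 662 CPM. In VSMCs it was 50.6 ± 35.1 CPM, with a range of 8.21 to 125 CPM, and in ECs 5.31 ± 2.02 CPM. The means of the other 9 types lay at 2.62 CPM or below. All pericyte libraries lay above all libraries of every other type, and the difference from the other types was 8.28 on the log2 scale (SE 0.11, edgeR adjusted p = 6.1e-117). Cox4i1, in contrast, was at 356 ± 47.2 CPM in pericytes, the lowest mean of the 12 types, against 523 CPM in Schwann cells, the next, and 840 CPM in macrophages, the highest. It was not called in pericytes.

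The level of Ndufa4l2 in pericytes was 892 ± 177 CPM, with libraries from 515 through a median of 866 to 1175 CPM. VSMCs followed with 89.8 ± 63.2 CPM (22.3 to 276), and fibroblasts with 65.8 ± 16.7 CPM (38.4 to 93.8), and the libraries of VSMCs and fibroblasts overlapped. The log2 difference from the other types was 7.77 in pericytes (SE 0.11, edgeR adjusted p = 1.7e-114), 4.05 in VSMCs (SE 0.15) and 3.67 in fibroblasts (SE 0.13). Ndufa4 went the other way. It had 17.6 ± 8.14 CPM in pericytes, with a lowest library at 4.67, a median of 18.9 and a highest at 30.3 CPM, which rest on 155 UMIs in all. In every other type its mean was at least 152 CPM, the value in neutrophils, and it reached 428 ± 53.7 CPM in VSMCs and 444 CPM in T cells. The difference was -4.38 on the log2 scale (SE 0.12, edgeR adjusted p = 4.0e-75).

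**Figure D2:**
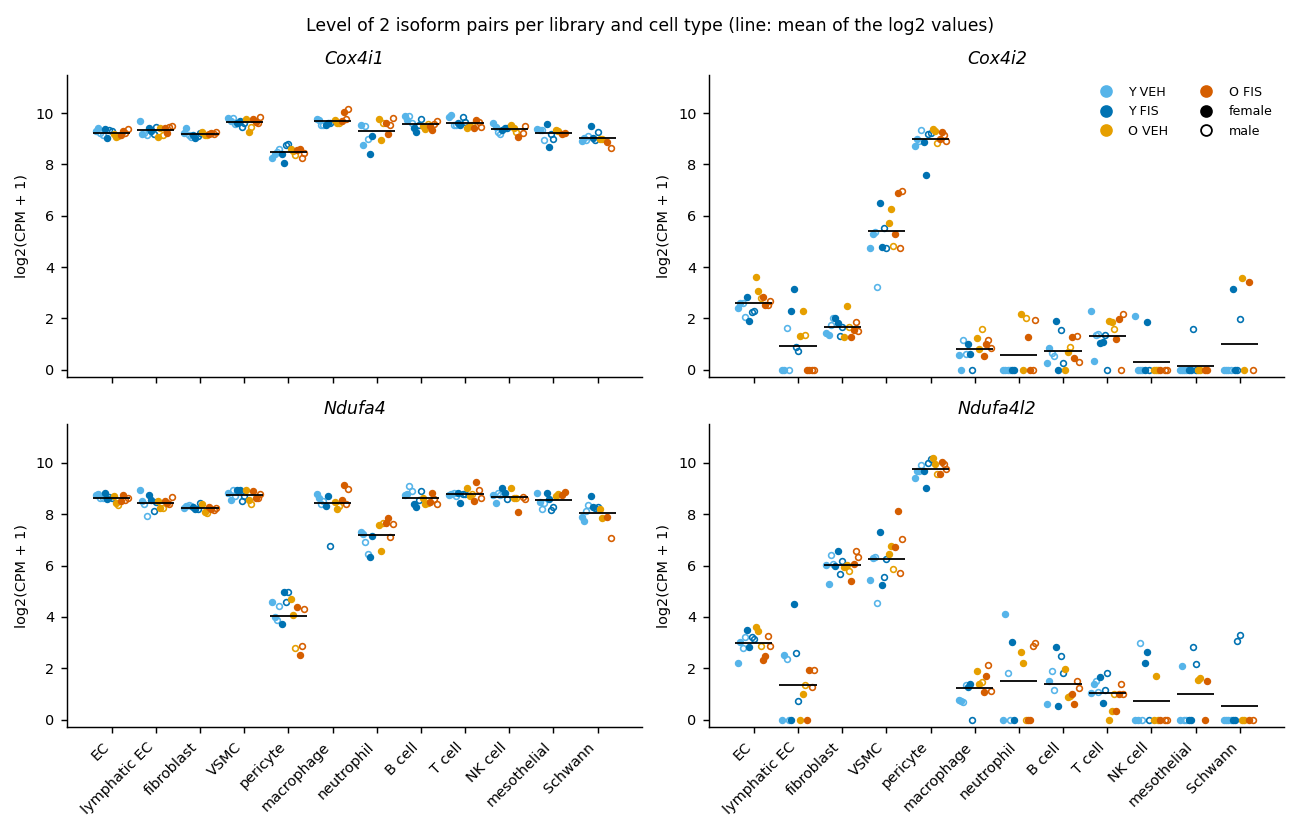
Level of the common isoforms Cox4i1 and Ndufa4 (left) and of Cox4i2 and Ndufa4l2 (right) as log2(CPM + 1), with a point for each library coloured by group and filled for females, and a line at the mean. Pericytes stand above all other types for Cox4i2 and Ndufa4l2 and below them for Ndufa4, in each of the 15 libraries, whatever the group.

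The same pattern was present in single pericytes. A UMI of Ndufa4l2 was found in 82.2% of them, of Cox4i2 in 75.2% and of Ndufa4 in 7.94%, at a median of 5356 UMIs a cell. In B cells, with a median of 6919 UMIs, the shares were 0.974%, 0.411% and 80.5%. Plasma cells, with a median of 27788 UMIs, had Cox4i2 in 15.9% and Ndufa4l2 in 8.62% of cells, and in 3.00% and 0.272% after thinning to 2000 UMIs, so that detection outside mural cells was not at 1 level. With cells thinned to 2000 UMIs, which left out the shallower cells (144 of 1335 pericytes and 712 of 13138 B cells), the shares were 74.1%, 60.8% and 3.53% in pericytes and 44.6% for Ndufa4 in B cells. Ndufa4l2 was also found in 27.5% of fibroblasts and 11.8% of VSMCs. After the same thinning, which left out 2773 fibroblasts and 404 VSMCs, it was in 11.7% and 8.66%. Of 24933 fibroblasts 6156 had both Ndufa4l2 and Ndufa4, and 709 had Ndufa4l2 without Ndufa4. Of the 1335 pericytes 1002 had Ndufa4l2 without Ndufa4, 95 had both, 11 had Ndufa4 alone and 227 neither. Cox4i2 and Cox4i1 did not part in this way: 851 pericytes had both.

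VSMCs held both isoforms of each pair. Cox4i2 and Ndufa4l2 were called higher there as well, and Cox4i2 was found in 11.8% of VSMCs. Pericyte markers were present in most of these cells. The 239 VSMCs with none of them had 5.82 CPM of Cox4i2 and 3.88 CPM of Ndufa4l2, which rest on 3 and 2 UMIs and a median of 1554 UMIs a cell. The 1276 VSMCs with 1 to 2 pericyte markers had 45.7 and 65.6 CPM (median 4174 UMIs), and the 1049 with at least 3 had 36.4 and 76.3 CPM (median 11766 UMIs), so that depth moved with the marker count. The part of pericyte RNA in the level of VSMCs was not tested, and the marker count does not measure it. Under the stricter gate, which left 290 VSMCs, the log2 differences were 2.39 for Cox4i2 and 2.44 for Ndufa4l2 in place of 4.43 and 4.05. Those of pericytes (227 cells) were 8.11 and 6.73. In a direct comparison of pericytes with VSMCs, added after these values were seen, edgeR called 25.9% of all 8308 genes. Of 89 nuclear members 2 were higher in pericytes, Cox4i2 (3.56) and Ndufa4l2 (3.53), and 17 were lower, among them Ndufa4 (-4.67), Cox6c (-1.41) and Cox7a2l (-1.33), with a median difference of -0.61 on the log2 scale.

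The sequences before the canonical transcripts of the 4 isoform genes are shown because pericytes were the cells with the highest levels of Cox4i2 and Ndufa4l2 and the lowest of Ndufa4. They are the 250 bases before the start of each transcript (GRCm39, GENCODE vM39), 5′ to 3′ on the strand of the gene: Cox4i1 at chr8:121394677-121394926 (+), Cox4i2 at chr2:152595813-152596062 (+), Ndufa4 at chr6:11907497-11907746 (-) and Ndufa4l2 at chr10:127350568-127350817 (+). The windows of Cox4i1 and Cox4i2 lie inside the annotated genes, which start further upstream at 121391505 and 152595625. Capitals mark matches on either strand to ACGTG, a form of the core of hypoxia response elements, and to TGGGAA. The latter is the core bound by RBPJ, the nuclear partner of Notch, a receptor used by mural cells. The other form of the hypoxia core, GCGTG, was not searched or marked.
Cox4i1: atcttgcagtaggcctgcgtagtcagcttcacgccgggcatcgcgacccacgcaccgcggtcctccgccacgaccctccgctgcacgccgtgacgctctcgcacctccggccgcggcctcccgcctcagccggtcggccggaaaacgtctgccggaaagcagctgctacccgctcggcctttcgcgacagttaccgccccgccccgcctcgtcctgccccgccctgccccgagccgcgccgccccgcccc
Cox4i2: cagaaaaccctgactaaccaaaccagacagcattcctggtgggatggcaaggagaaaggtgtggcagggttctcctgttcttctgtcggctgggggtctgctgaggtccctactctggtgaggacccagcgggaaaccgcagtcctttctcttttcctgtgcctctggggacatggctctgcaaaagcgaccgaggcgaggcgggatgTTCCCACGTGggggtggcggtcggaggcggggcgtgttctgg
Ndufa4: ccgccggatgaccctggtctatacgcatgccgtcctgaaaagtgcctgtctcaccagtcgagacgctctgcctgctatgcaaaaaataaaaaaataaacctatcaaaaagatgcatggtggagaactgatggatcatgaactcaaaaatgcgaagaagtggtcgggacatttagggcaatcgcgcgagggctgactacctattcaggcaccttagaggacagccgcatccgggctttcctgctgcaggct
Ndufa4l2: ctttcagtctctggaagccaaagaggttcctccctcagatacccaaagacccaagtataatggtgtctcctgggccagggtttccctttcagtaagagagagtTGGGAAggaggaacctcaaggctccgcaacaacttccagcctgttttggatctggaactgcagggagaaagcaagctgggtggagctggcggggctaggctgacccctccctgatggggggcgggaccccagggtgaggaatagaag

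In Cox4i2 the reverse form of TGGGAA, starting 42 bases before the transcript start, overlaps a palindrome that reads as ACGTG on both strands. Ndufa4l2 has TGGGAA 147 bases before its start and no ACGTG in this window, and Cox4i1 and Ndufa4 have neither. ACGTG was found in 17% of 21418 promoter windows of this length and in 17.2% of the 99 windows of members, and TGGGAA in 22.8% and 20.2%. The palindromic motif of NRF1, a factor known for respiratory genes, matched exactly, matched exactly, was in 0.663% of all windows and 3 of the 99 (3.03%), the ETS core CCGGAAG, which GABPA binds, in 6.82% and 9.09%, and the YY1 motif AAGATGGC in 1.33% and 0%. These matches are letters in a window and no binding was measured.

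The other isoforms of complex IV were unevenly spread at low levels. Cox8b, the heart and muscle form of subunit VIII, had 12.9 ± 3.92 CPM in ECs (7.82 to 20.9, n = 15), where its difference from the other types was 4.29 (SE 0.18, edgeR adjusted p = 1.2e-48), and 3.19 CPM in macrophages. It was found in 4.78% of ECs, against 0.219% of T cells, and 2.67% against 0.03% after thinning to 2000 UMIs, which left out 10611 of 54453 ECs and 206 of 6865 T cells as shallower. In NK cells 0 of 380 cells had a UMI, which allows a share of up to 0.789% of cells with a UMI and sets no limit on cells that express the gene. All 8 brown and white adipocyte markers had UMIs in EC libraries, at 14.8 to 58.1 CPM in sum, and all 9 cardiomyocyte markers, at 3.37 to 66.2 CPM. Their part in the Cox8b of ECs was not tested. The common form Cox8a lay between 369 and 845 CPM in all 12 types.

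Cox6b2, best known as the testis form of subunit VIb, had 44.9 ± 23.4 CPM in mesothelial cells (11.4 to 79.0, n = 12), 22.2 CPM in fibroblasts and 18.8 CPM in Schwann cells, and was called higher in all 3 (2.90, 1.81 and 1.53 on the log2 scale). Cox7a1, the heart and muscle form of subunit VIIa, was called higher in Schwann cells (2.07, SE 0.39) and pericytes (1.66, SE 0.25), at 11.7 CPM (0 to 25.2, n = 12) and 8.66 CPM (0 to 18.7, n = 15) and on 26 and 85 UMIs. With the stricter gate no nuclear member was called higher in Schwann cells. Cox7a2l has been linked to supercomplexes of complexes III and IV, which were not measured here. It had 83.0 ± 17.1 CPM in pericytes (-1.69, SE 0.08) and 106 CPM in Schwann cells (-1.26, SE 0.10), against 213 to 466 CPM in the other types. Its call in Schwann cells was lost with RLE size factors. Cox6a2, the muscle form of subunit VIa, was too rare to test: most of its UMIs, 995, lay in 111 cells that the markers placed in no type, and 394 lay in 45 of 383 plasma cells. It was found in at most 44 cells of any of the 12 types.

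In complex V, the genes Atp5g1, Atp5g2 and Atp5g3 encode the same mature subunit c of the rotor. Atp5g2 was the most abundant of them in B cells, at 695 ± 190 CPM (429 to 1146), and in T cells, at 519.9 CPM, with log2 differences of 1.5 (SE 0.06) and 1.06 (SE 0.06). In pericytes it was at 156 CPM, below Atp5g1 at 166 and Atp5g3 at 181 CPM. Atp5e had 204 ± 46.5 CPM in pericytes (-1.32, SE 0.06) and 885 CPM in B cells. In complex II, Sdhc, a membrane anchor, had 116 ± 21.8 CPM in VSMCs (1.28, SE 0.06) and 16.4 CPM in neutrophils, while Sdha, Sdhb and Sdhd were called in no type. The VSMC difference of Sdhc was 0.54 under the stricter gate, below the threshold. Ndufc2 and Ndufa8, accessory subunits of complex I, were the other genes called higher in ECs with differences just past 1 (1.08 and 1.02), beside Cox4i2 at 1.01. With RLE size factors Ndufa8 and Cox4i2 were below the threshold in ECs.

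Neutrophils had the most calls among nuclear members, as they had among all genes. Of 95 members 34 were lower and 2 higher, where 31.5% of all genes were called lower and 22.8% higher in this type, so that the share of members called lower is near the background and the share called higher is below it. The assembly factors were lower most often, with 6 of 8 of complex I and 3 of 4 of complex II, against 13 of 39 subunits of complex I, 3 of 15 of complex IV and 6 of 17 of complex V. The median difference was -0.61 for nuclear members and -0.38 for all genes. The lowest were the complex I assembly factors Ndufaf4 (-3.69, SE 0.25; 11 UMIs) and Ndufaf5 (-3.25, SE 0.39) and the subunit Ndufa5 (-2.70, SE 0.12). Ndufaf7, a methyltransferase for a complex I subunit, was higher (1.63, SE 0.10), at 73.1 CPM against 21.1 to 31.7 CPM elsewhere. Atp5l, subunit g of complex V, was called at 1.00, which fell below the threshold in all 23 alternatives. The 13 mitochondrially encoded genes had a median difference of 0.49 in neutrophils and of -0.05 with the stricter gate, without a call under either, and 10 of 15 glycolytic enzymes were called higher there. Neutrophils had 13 libraries and a median of 4449 to 5020 UMIs a cell by group.

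The mitochondrially encoded genes differed mainly by their height together. In VSMCs all 13 lay above the other types, between 0.46 for mt-Co1 and 1.25 for mt-Nd4l, and 6 were called higher (18.8% of all genes were): mt-Nd1, mt-Nd2, mt-Nd3, mt-Nd4l and mt-Nd4 of complex I and mt-Cytb of complex III. With cells limited to 10% mitochondrial UMIs only 1 of these 6 calls was left in VSMCs. The stricter gate also left 1 of them, with a median of 0.68 in place of 0.92. In ECs and B cells all 13 were above the other types without a call (medians 0.62 and 0.53, and 0.36 in ECs at 10% mitochondrial UMIs and 0.23 in B cells with RLE size factors), and in NK cells all 13 below, with mt-Nd6 called (-1.05, SE 0.16), a call lost under both of these settings. With the stricter gate 1 mitochondrial gene was called in ECs and 4 in NK cells, without mt-Nd6. All 13 were lower in pericytes than in VSMCs in the direct comparison, with a median of -1.31. Among mitochondrial UMIs, mt-Co3 made up a median of 18.9% over the types, mt-Atp6 16.8% and mt-Co1 15.9%, while mt-Nd6, the gene encoded on the other strand, made up 0.144% and mt-Atp8 0.246%. The pairs mt-Nd4l and mt-Nd4, and mt-Atp8 and mt-Atp6, overlap and lie on shared transcripts, so that their counts cannot be fully told apart.

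Summed over each library, nuclear members took 1.55% ± 0.081 of all UMIs of gated cells (1.44 to 1.73, n = 15), and the mitochondrially encoded genes 4.09% ± 0.95 (2.71 to 5.69). The nuclear share was highest in VSMCs (2.00% ± 0.20) and lowest in neutrophils (0.734% ± 0.073), and the libraries of these 2 types did not overlap. The place of VSMCs rests on the gate: with the stricter gate (290 cells) the median difference of nuclear members from the other types was -0.58 in place of 0.38, with 15 called lower and 2 higher in place of 4 higher, where 25.4% of all genes were called and 11.1% were lower. The mitochondrial share was 6.43% ± 0.77 in VSMCs and 5.74% ± 2.09 in ECs, which overlapped, and 2.69% ± 0.49 in NK cells. Within ECs it ran from 2.89% to 10.4%, while the nuclear share of the same libraries ran from 1.41% to 1.65%.

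The mitochondrial share moved with the library across types. In Y VEH M1 and Y FIS M1 it was above the type's median in 0 of 12 and 0 of 11 types, in O VEH M1, O FIS M1 and Y FIS M2 in 1 of 10, 1 of 11 and 1 of 9, and in O FIS F1 and Y VEH F1 in 2 of 12 and 3 of 12. In Y VEH M2 and Y FIS F2 it was above in 11 of 12 types, and in Y FIS F1, O VEH F1 and O VEH F2 in 10 of 12. The nuclear share varied less between libraries. It was above the type's median in 10 of 10 types in O FIS F2, in 1 of 12 in Y FIS F2, and in 2 to 8 types in the other libraries.

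**Figure D3:**
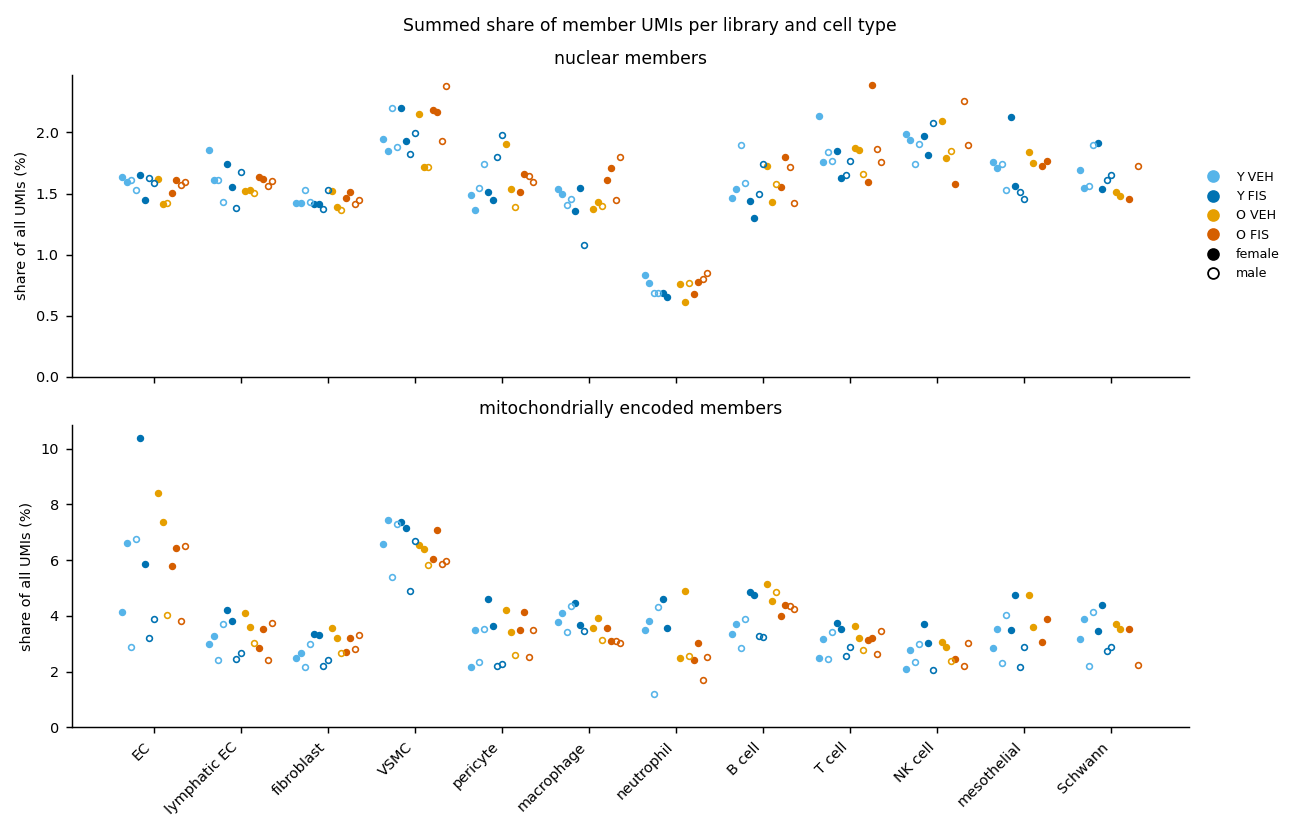
Share of all UMIs of a cell type, in percent, that fell on the nuclear (top) and the mitochondrially encoded members (bottom), with a point for each library, coloured by group and filled for females. Neutrophils lie lowest for the nuclear members, between 0.61% and 0.845%, and for the mitochondrial ones ECs run from 2.89% to 10.4% and neutrophils from 1.19% to 4.87%.

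To ask whether age or fisetin changed these genes, groups were compared within each type by edgeR, with sex as a term. Each fit took all libraries with at least 10 cells of the type, at most 15. This left 2 libraries of Y FIS in neutrophils, and 2 each of O VEH and O FIS in mesothelial and in Schwann cells. A gene was called at an adjusted p under 0.05 over all genes tested and a log2 change beyond 0.25. No member was called in any type between O VEH and Y VEH, where 0.739% of the tests of all genes were called (608 of 82310). At an unadjusted p under 0.05 there were 6 nuclear members higher and 29 lower with age in 1010 tests (3.47%, against 10.3% of the tests of all genes), and 7 mitochondrial ones higher and 4 lower in 154 tests. DESeq2 called 2 nuclear members, Cox6b2 in fibroblasts and Cox7a2l in T cells, and 1 mitochondrial one, mt-Nd1 in B cells.

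The changes nearest to a call with age were in 4 cell types. Cox6b2 in fibroblasts had 17.3 to 19.6 CPM in Y VEH and 21.0 to 32.2 CPM in O VEH, groups that did not overlap, with a log2 change of 0.54 (SE 0.13, edgeR adjusted p = 0.0805). The adjusted p by DESeq2 was 0.0179. In O FIS it had 21.8 to 28.2 CPM, a change of 0.42 from Y VEH (SE 0.13, edgeR adjusted p = 0.0855). In B cells mt-Nd1 had 2467 to 3285 CPM in Y VEH and 3546 to 3901 CPM in O VEH (0.42, SE 0.13, edgeR adjusted p = 0.0964), and 6 of the 13 mitochondrial genes there had an unadjusted p under 0.05, all higher, while 9 of 90 nuclear members did, all lower, against 19.8% of all genes in B cells. Depth moved with the groups in B cells, at a median of 7102 UMIs a cell for Y VEH, 10638 for O VEH, 8376 for O FIS and 4688 for Y FIS, and erythrocyte markers there reached 9468 CPM in Y VEH and 16787 CPM in O VEH. The sum of the 8 adrenal cortex markers in B cells, of which Mc2r had no UMI, was 25.9 to 29.4 CPM in Y VEH and 53.4 to 190.0 CPM in O VEH, which did not overlap. Only Cyp11a1 among them was called there with age (5.83). In every other type the sums of Y VEH and O VEH overlapped. The part of erythrocyte and adrenal markers in the changes of B cells was not tested. In T cells Cox7a2l had 446 to 649 CPM in Y VEH and 341 to 389 CPM in O VEH (-0.46, SE 0.15, edgeR adjusted p = 0.134). In neutrophils mt-Nd6 had 6.19 to 45 CPM in Y VEH and 56.9 to 120.2 CPM in O VEH (1.45, SE 0.34, edgeR adjusted p = 0.0842). It had 43.0 to 137.6 CPM in the 2 libraries of Y FIS and 49.7 to 108.1 CPM in O FIS, so that Y VEH had the lowest mean of the groups. In the remaining 8 types the member with the smallest p had an edgeR adjusted p between 0.220 (mt-Atp8 in VSMCs, -0.71) and 1 (Ndufa5 in mesothelial cells, 0.64).

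Fisetin in old mice gave no call in any type, for members or for any other gene (0% of 81969 tests), and neither did DESeq2 for members. Nuclear members with an unadjusted p under 0.05 were 39 higher and 3 lower in 1012 tests (4.15%, as in all genes), and no mitochondrial gene had one. VSMCs and macrophages held 15 each of the higher ones, where 8.45% and 6.50% of all genes had such a p. In VSMCs 84 of 89 nuclear members had a positive change, with a median of 0.22 against 0.01 for all genes. Ndufb9, an accessory subunit of complex I, had 282 to 329 CPM there in O VEH and 356 to 443 CPM in O FIS, which did not overlap (0.39, SE 0.12, edgeR adjusted p = 0.489). In macrophages 85 of 86 had a positive change, with a median of 0.26 against 0.001 for all genes. Uqcr11, a small subunit of complex III, had 194 to 236 CPM there in O VEH and 236 to 343 CPM in O FIS (0.46, SE 0.15, edgeR adjusted p = 0.744). The erythrocyte markers in these macrophages ran from 33135 to 229168 CPM in O VEH and from 43220 to 131942 CPM in O FIS, and in VSMCs from 71.5 to 11612 CPM and from 98.9 to 244 CPM. Their part in the changes was not tested. In ECs, the cells at the centre of the study, 80 of 85 changes were positive with a median of 0.08 (-0.001 for all genes), and none had an unadjusted p under 0.05. The members of a cell type come from the same libraries, so that these counts of positive changes do not stand for separate observations.

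In young mice fisetin gave no call either (0% of 79755 tests; DESeq2 none among members), with 5 nuclear members higher and 20 lower at an unadjusted p under 0.05 in 1003 tests (2.49%, against 4.01% of the tests of all genes). Of the lower ones 12 of 87 were in B cells, where 9.85% of all genes had such a p. The median change of nuclear members there was -0.22, and that of all genes -0.04. The difference between the fisetin effects in old and young mice was tested as an interaction. It gave no call by edgeR or DESeq2, and at an unadjusted p under 0.05 it had 48 nuclear members higher and 2 lower in 1015 tests (4.93%, against 4.89% of the tests of all genes). Macrophages held 16 of these, B cells 11 and VSMCs 10, where 7.60%, 8.11% and 8.21% of all genes had such a p. The smallest p in macrophages was that of Ndufs7, an iron-sulfur subunit of complex I (0.62, SE 0.19, edgeR adjusted p = 0.647). The comparisons of O VEH, O FIS and Y FIS with Y VEH or O VEH share control libraries, so that their counts are not independent.

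Between O FIS and Y VEH, 0.880% of the tests of all genes were called (720 of 81817) and no member was. At an unadjusted p under 0.05 there were 45 nuclear members higher and 12 lower in 1009 tests (5.65%) and 3 mitochondrial ones higher and 6 lower in 154 tests (5.84%), against 10.8% of the tests of all genes. Macrophages held 20 of the higher ones among 87 tested, where 12.1% of all genes had such a p. DESeq2 called Cox6b2 in fibroblasts and Ndufa11 in macrophages. Ndufa11, an accessory subunit of complex I, had 98.4 to 130.2 CPM in Y VEH and 133 to 180.3 CPM in O FIS, which did not overlap (0.51, SE 0.14, edgeR adjusted p = 0.192). The isoforms of pericytes did not separate the groups: the mean of Ndufa4l2 in pericytes was 824 ± 119 CPM for Y VEH, 875 ± 270.3 CPM for Y FIS, 978 ± 209 CPM for O VEH and 913 ± 127 CPM for O FIS, and all 4 groups overlapped. In VSMCs Cox4i2 was at 28.1 ± 14.8 CPM in Y VEH (8.21 to 40.5) and 76.3 ± 51.5 CPM in O FIS (26.1 to 125), a change of 1.24 (SE 0.53, edgeR adjusted p = 0.314), and the change of Ndufa4l2 was 1.17 (SE 0.47, edgeR adjusted p = 0.273). Without the filters on low counts and on detection edgeR called both. The change of Cox4i2 was then 1.21 (SE 0.20, edgeR adjusted p = 1.5e-07) and that of Ndufa4l2 1.14 (SE 0.17, edgeR adjusted p = 8.2e-09). The changes thus stayed near those with the filters while the SEs were smaller, and the same libraries of Cox4i2 overlapped.

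**Figure D4:**
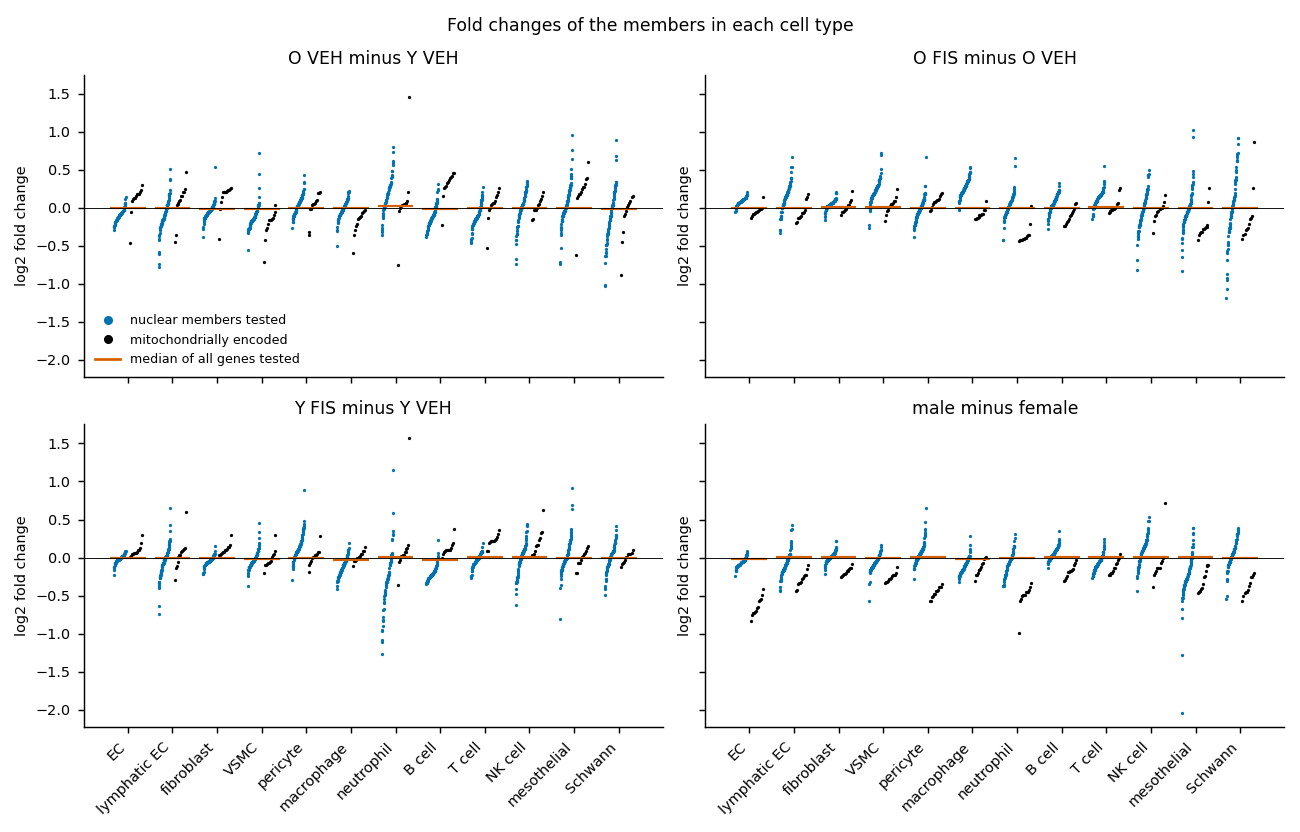
Log2 fold change of each nuclear (blue) and mitochondrially encoded member (black) in each cell type, sorted within a type, for 4 comparisons, with the median of all genes tested as an orange line. No point is called. In the panel of males against females most mitochondrial genes lie below 0, and in the panel of age those of neutrophils spread from -0.75 to 1.45.

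Between the sexes no member was called, and the differences at an unadjusted p under 0.05 lay mostly in the mitochondrially encoded genes, with lower values in males. Of 154 tests 46 were lower and 1 higher in males at that threshold (30.5%, against 9.38% of the tests of all genes, of which 0.718% were called), while nuclear members had 11 higher and 17 lower in 1015 tests. DESeq2 called no member. In ECs 11 of the 13 had such a p, with a median of -0.66, in pericytes 11 (-0.44), in VSMCs 10 (-0.27) and in lymphatic ECs 5 (-0.28). In macrophages, T cells, NK cells and mesothelial cells none was lower at that threshold. The mitochondrial share of Y VEH M2 was above the type's median in 11 of 12 types and that of O FIS M2 in 5 of 10. The other male libraries were above it in at most 1 type, and of the females O FIS F1 in 2 of 12 and Y VEH F1 in 3 of 12. The gene with the smallest p in ECs was mt-Nd2, at 2627 to 7170 CPM in 8 female libraries and 1812 to 4363 CPM in 7 male ones, which overlapped (-0.76, SE 0.27, edgeR adjusted p = 0.264). In pericytes mt-Nd2 had a change of -0.57 (SE 0.16, edgeR adjusted p = 0.210). The 13 genes of a cell type come from the same libraries, so that these counts do not stand for 13 separate observations. Without Y VEH F1 the count of called members was 6, all mitochondrial and in pericytes.

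**Figure D5:**
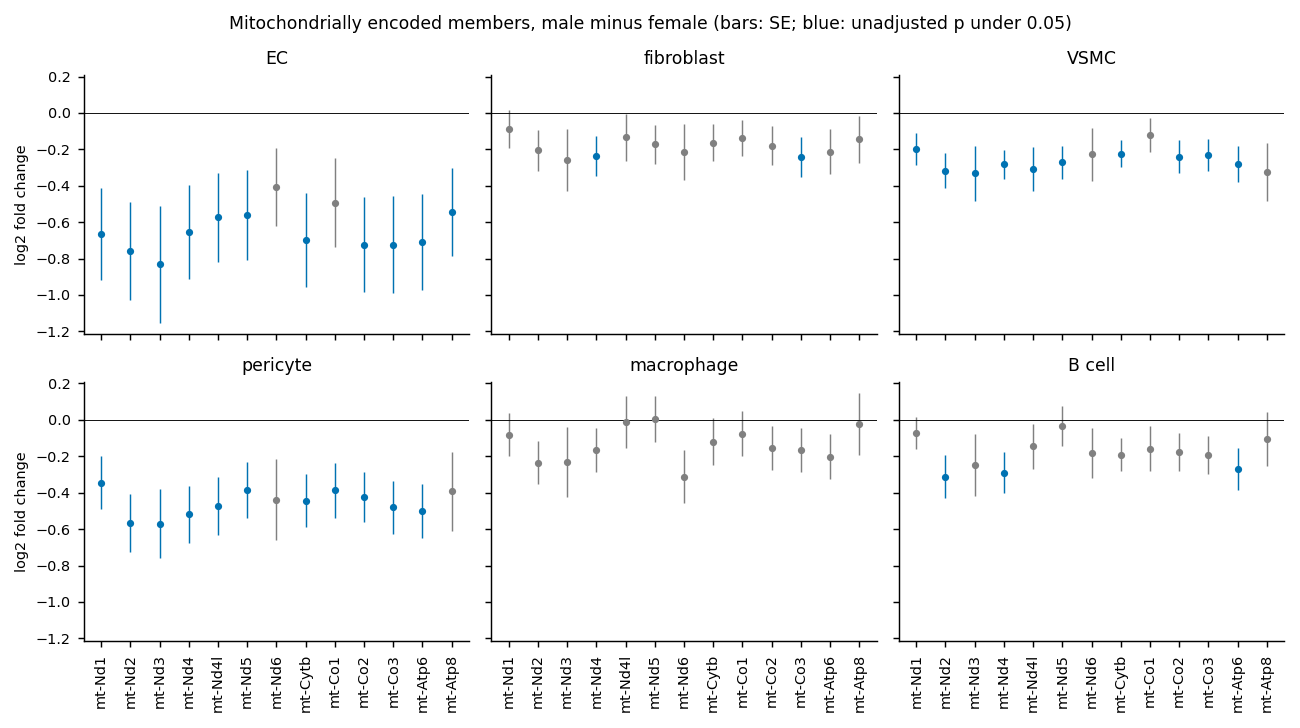
Log2 fold change, male minus female, of the 13 mitochondrially encoded genes in 6 cell types, with bars of 1 SE and blue points at an unadjusted p under 0.05. In ECs the points lie between -0.83 and -0.41, and in macrophages between -0.31 and 0.00.

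The related lists showed few calls in the same comparisons. Among the TCA cycle enzymes only Fh1, fumarase, was called, lower with age in B cells (-0.81, SE 0.20, edgeR adjusted p = 0.0431), and among the glycolytic enzymes only Ldhb, a lactate dehydrogenase, higher in fibroblasts of O FIS than of Y VEH (0.42, SE 0.09, edgeR adjusted p = 0.0298). No assembly factor outside the symbol rule and no regulator of biogenesis was called in any of the 6 comparisons. The dissociation stress genes had 1 call, Jun in B cells of O FIS against Y VEH (0.82), and 3 between the sexes, Hspa1a, Hspa1b and Ier2 in fibroblasts (0.42, 0.69 and 1.23). With age they were 1 higher and 12 lower in 74 tests at an unadjusted p under 0.05. Their sum was 705 to 964 CPM in T cells of Y VEH and 528 to 630 CPM in O VEH. In neutrophils it was 4225 to 4985 and 2372 to 4048 CPM, and in ECs 926 to 1116 and 728 to 839 CPM. NK and Schwann cells did not overlap either, while the remaining types did. The part of these genes in the changes with age was not tested. Markers of the adrenal cortex, a neighbouring organ, had 3 calls: Cyp11a1 in B cells in both comparisons with Y VEH (5.83 and 4.97) and Fdx1 in fibroblasts between the sexes (0.30). No cardiomyocyte, adipocyte, kidney or erythrocyte marker was called, and no skeletal muscle marker passed the filter.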

How the data were processed

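Droplet 3′ RNA libraries of dissociated aortas, sorted for viable cells, were used as deposited. The authors made raw UMI counts per gene and barcode with Cell Ranger 8.0.1 on GRCm39, without normalization, and per the labels also used Seurat 5.2.0. Members and gene lists were chosen with earlier results of these data known.

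Barcodes with 200 to 7000 genes and at most 25% mitochondrial UMIs were kept. A cell was given a type with at least 3 of that type's 7 or 8 markers and at least 2 more than of any other type, EC markers not counting against lymphatic ECs. The 13916 other cells were left out, as were plasma and adrenocortical cells, which lacked 2 libraries of at least 10 cells in every group, and doublets were not called. Counts were summed per library and type (at least 10 cells). Group comparisons used edgeR 4.0.16 (glmQLFit, glmQLFTest, TMM, filterByExpr, detection in over 10% of cells of either group), group and sex as terms, two-sided, with Benjamini-Hochberg adjustment over all genes of a type. Cell types were compared in 1 fit with the library as a block. p-values measure the spread between pooled libraries, and binomial floors cover counting error only. The pipeline was tested on simulated data.

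Named were the mitochondrial genes, isoforms of a subunit, Sdha to Sdhd, the most abundant member of each complex, the 3 most increased and 3 most decreased called members per type, and, where none was called, the member with the smallest p, of which the text gives the nearest to a call. The inhibitor of complex V has a symbol outside the rule and was not analysed here. Alternatives were RLE size factors, DESeq2 1.42.0, no filter on low counts, no mitochondrial genes, other cell and gate limits, no sex term, the replicate block, only the groups compared and each library left out. In group comparisons the setting without the filter on low counts also dropped the limit on detection. Promoter windows, taken before the start of each canonical transcript, came from GENCODE vM39 on GRCm39, the build of the counts. R 4.3.3, Python 3.11.15, numpy 2.4.6, pandas 2.3.3 and scipy 1.17.1 were used.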

Additional observations from a re-analysis of the deposited data

Results flagged for a closer look

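Of 93 groups of 4 libraries tested for a library far from the other 3, 5 stood out, and chance alone gives about 1 in 20. The nuclear share in fibroblasts was 1.53% in Y VEH M1 and 1.42% to 1.43% in the other Y VEH libraries. The nuclear share in mesothelial cells was 2.13% in Y FIS F1 and 1.46% to 1.56% in the others. The mitochondrial share in VSMCs was 7.07% in O FIS F2 and 5.86% to 6.04% in the others. The mitochondrial share in macrophages was 3.56% in O FIS F1 and 3.02% to 3.10% in the others. Cox7a1 in pericytes was at 16.8 CPM in Y VEH M2 and at 3.38 to 4.46 CPM in the others.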

How the results depend on the processing

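Counts of called members in the comparisons of groups stayed at 0 under most of the 27 alternatives. For age, nuclear calls were 1 without the filter on low counts, 2 by DESeq2 and 0 to 1 when libraries were left out in turn (Cox6b2 in fibroblasts, without O VEH F2), and mitochondrial calls were 2, 1 and 0 to 1 (mt-Nd1 in B cells, without Y VEH M2). For O FIS against Y VEH, nuclear calls were 2 (Cox4i2 and Ndufa4l2 in VSMCs), 2 and 0 to 1 (Cox6b2 in fibroblasts without O VEH F1, Ndufa6 in B cells without O FIS F1). Without the filter on low counts there was 1 nuclear call for fisetin in old mice (Ndufa4l2 in VSMCs) and 1 for the interaction (Cox6a2 in NK cells). Between the sexes there were 12 calls without that filter, 5 with at least 50 cells (all in pericytes) and 0 to 6 with libraries left out (6 without Y VEH F1, 2 without Y VEH M2 and 1 without Y FIS M1). The cause of these differences was not tested. The replicate block gave 0 calls in every comparison. Samples of the same sex and number correlated at -0.211 to 0.335 in ECs, 8 of 21 pairs above 0.1, and 18 of 21 were above it in fibroblasts. Pairs of the same sex and another number gave the same 8 and 18 of 21, so the numbers were not taken to pair libraries.

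Between cell types, there were 144 calls of nuclear members over 11 types with the stricter gate (51 in pericytes) in place of 79 over 12 types, and 1 call of a mitochondrial member in place of 7 at 10% mitochondrial UMIs. Of 46 named differences over 1047 alternatives 910 kept their call and 137 did not, in 24 results; all kept their direction. Cox4i2, Ndufa4l2 and Ndufa4 in pericytes kept theirs throughout. Atp5l in neutrophils lost its call in every alternative. With RLE factors Ndufa8 in ECs, Ndufs8 and Sdhaf1 in B cells and Atp5g2 and Cox7a2l in T cells lost theirs. So did Cox7a2l and Ndufa4l2 in Schwann cells and mt-Nd6 in NK cells. These factors moved the median of all nuclear members by -0.28 in B cells and 0.29 in Schwann cells. With the stricter gate the median of nuclear members in VSMCs was -0.58 in place of 0.38. Averaged over cells, the shares were 1.46% (nuclear) and 5.40% (mitochondrial). The stricter gate left too few VSMCs, NK, mesothelial and Schwann cells to compare groups. Small types and low genes such as Cox7a1 are limited by depth.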
